A study of Homo sapiens with 2 samples.

Results

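The genes described here encode the α-tubulins TUBA1A, TUBA1B, TUBA1C and TUBA4A, the β-tubulins TUBB, TUBB2A, TUBB4B and TUBB6, and stathmin (STMN1). They were chosen by gene symbol, and they are 9 of the 16645 annotated genes with a read and hold 203 of the 237608 transcript models of the series. All 9 were read in both libraries. The RNA came from GM12878, an established human B-lymphoblastoid line transformed with Epstein-Barr virus, for which the labels give no treatment, time or genotype. It was read as native strands by Oxford Nanopore direct RNA sequencing in 2 replicate libraries, which form the only group, so both libraries speak for 1 cell line. Nothing in the labels says that the replicates came from separate cultures. Every p-value below therefore compares the reads of these 2 libraries, whose spread may be technical, and says nothing of conditions.

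α- and β-tubulin pair into the dimers from which microtubules are built, the filaments of the mitotic spindle and of the tracks for intracellular transport. The genes of each family encode isotypes that differ mainly in the acidic tail at the end of the protein, where enzymes remove a tyrosine or add glutamates. Stathmin binds free dimers and promotes the shortening of microtubules, and its level is known to be high in dividing lymphoid cells. Tubulin mRNA is known to be degraded when free dimers are abundant, through recognition of the nascent tubulin chain by TTC5.

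The isotype-defining end of the coding sequence is shown for the 4 β-tubulin genes, because the ability to tell these genes apart bears on every value below. Each line holds the last 60 coding bases of the most-read known model, stop codon included, 5′ to 3′ on the strand of the gene, from GENCODE release 29 (GRCh38). Capitals mark bases that differ from, or have no partner in, the aligned TUBB sequence.
TUBB, chr6:30724338-30724397, plus strand: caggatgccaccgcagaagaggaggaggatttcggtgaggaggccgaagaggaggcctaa
TUBB4B, chr9:137243497-137243556, plus strand: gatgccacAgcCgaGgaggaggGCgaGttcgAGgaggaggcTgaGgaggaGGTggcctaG
TUBB2A, chr6:3153863-3153922, minus strand: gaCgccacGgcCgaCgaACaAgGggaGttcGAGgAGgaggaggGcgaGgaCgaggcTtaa
TUBB6, chr18:12326071-12326130, plus strand: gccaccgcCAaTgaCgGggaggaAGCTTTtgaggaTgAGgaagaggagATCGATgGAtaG

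Of the 60 bases, 14 were marked in TUBB4B, 18 in TUBB2A and 23 in TUBB6. Over the whole coding sequence, TUBA1B was 97.2% identical to TUBA1A and 97.3% identical to TUBA1C, with shared exact runs of 221 and 326 bases. TUBA4A was 86.3% identical to TUBA1B. Identity between β genes ranged from 81.3% (TUBB and TUBB6) to 87.2% (TUBB2A and TUBB4B). The 3′ untranslated regions shared no exact run above 13 bases between any pair of the 8 genes. Reads that lie mostly in coding sequence could be placed on a near copy, so the split of reads among TUBA1A, TUBA1B and TUBA1C is uncertain. TUBB2A has a nearer copy outside the chosen genes, TUBB2B, with 98.1% coding identity and a shared run of 725 bases.

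Replicate 1 held 1360368 reads and replicate 2 held 1510998, so that 3 reads, the limit that a count of 0 allows, were 2.21 and 1.99 CPM (reads scaled to a library of 1000000). A direct RNA read is 1 RNA strand, so CPM values of genes are given per strand read and were not divided by length. All 6 B cell markers examined were read: CD74, the invariant chain of MHC class II, stood at 7927 CPM ± 228 (SD, n = 2), and CD79A, a chain of the B cell receptor complex, at 684 CPM ± 6.38 (SD, n = 2). Of 6 neuronal markers, 1 had a read, the neuronal tubulin TUBB3 with 1 read in replicate 1 and 0 in replicate 2. The erythroid genes GATA1 and HBG1 and the hepatocyte gene ALB had 0 reads. The T cell gene CD3E had 5 and 16 reads, the myeloid gene CD14 2 and 2, and the fibroblast gene COL1A1 2 and 3.

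TUBA1B and TUBB dominated the tubulin reads of this cell line. TUBA1B, a widely expressed α-tubulin (chromosome 12, 49127782 to 49131397, minus strand), had 3877 reads or 2850.0 CPM in replicate 1 and 3942 reads or 2609 CPM in replicate 2. TUBB, the main β-tubulin of non-neuronal cells (chromosome 6, 30720201 to 30725426, plus strand), had 3528 reads or 2593 CPM and 3729 reads or 2468 CPM. TUBA1B lay above TUBB in each library, and the lower TUBA1B value exceeded the higher TUBB value by little. By mean CPM the genes ranked 62nd and 73rd among all annotated genes.

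STMN1 (chromosome 1, 25884181 to 25906991, minus strand) came next with 648 reads or 476 CPM and 721 reads or 477 CPM, a mean of 477 CPM ± 0.584 (SD, n = 2). TUBB4B, a broadly expressed β-tubulin (chromosome 9, 137241213 to 137243707, plus strand), had 459 and 323 CPM. TUBA1C (chromosome 12, 49188736 to 49274603, plus strand), close in sequence to TUBA1B, had 416 and 312 CPM. The ranges of TUBB4B and TUBA1C overlapped, and both lay below STMN1 in each library.

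TUBA1A, the α-tubulin best known from developing neurons (chromosome 12, 49184796 to 49189324, minus strand), had 225 reads or 165 CPM in replicate 1 and 441 reads or 292 CPM in replicate 2. TUBA4A, whose mRNA encodes no final tyrosine (chromosome 2, 219249711 to 219278170, minus strand), had 187 and 178 CPM. TUBA1A was below TUBA4A in replicate 1 and above it in replicate 2, and this was the only pair of the 9 genes whose order differed between the libraries. TUBB6, a divergent β-tubulin (chromosome 18, 12307669 to 12344320, plus strand), had 84.5 and 80.1 CPM. TUBB2A (chromosome 6, 3153669 to 3157526, minus strand) had 78.7 and 50.3 CPM and was lowest in both.

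**Figure D1:**
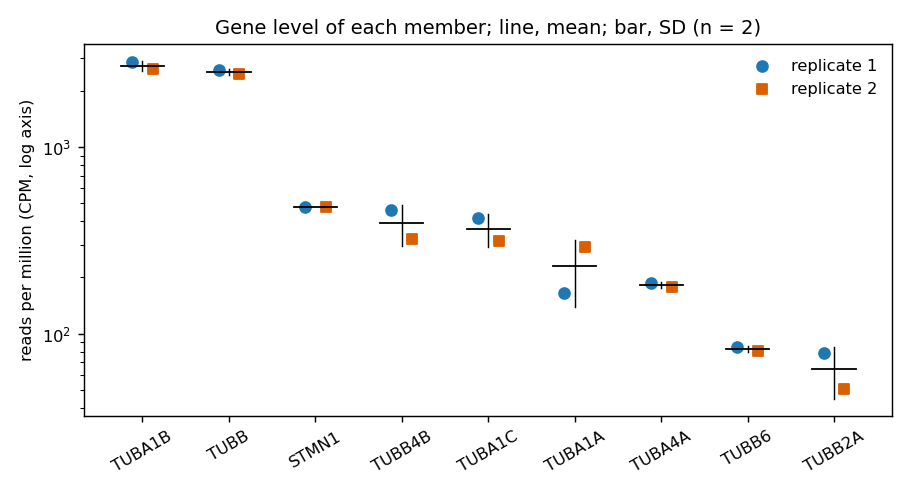
Gene level of each of the 9 genes in CPM on a log axis, with circles for replicate 1, squares for replicate 2, and the mean and SD (n = 2) as lines. TUBA1B and TUBB lie between 2468 and 2850.0 CPM, and every other gene is at 477 CPM or below.

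Within the α family, TUBA1B took 78.1% of 4967 reads in replicate 1 (95% Wilson interval 76.9 to 79.2%) and 76.1% of 5182 reads in replicate 2 (74.9 to 77.2%), a mean of 77.1% ± 1.40 (SD, n = 2). These intervals cover counting error only. TUBA1C followed with 11.4% and 9.09%, TUBA4A with 5.13% and 5.19%, and TUBA1A with 4.53% (3.99 to 5.14%) and 8.51% (7.78 to 9.30%). TUBA8, an α-tubulin outside the chosen genes, had 44 and 58 reads, and TUBA4B had 0 and 1. TUBA3C, TUBA3D, TUBA3E and TUBAL3 had no read, which allows up to 2.21 and 1.99 CPM.

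Within the β family, TUBB took 78.8% of 4479 reads (77.5 to 79.9%) and 81.3% of 4585 reads (80.2 to 82.4%), a mean of 80.0% ± 1.81 (SD, n = 2). TUBB4B held 14.0% and 10.6%, TUBB6 2.57% and 2.64%, and TUBB2A 2.39% (1.98 to 2.88%) and 1.66% (1.33 to 2.07%). Among the β genes outside the list, TUBB2B had 83 and 147 reads and TUBB4A had 20 and 24. TUBB1, the platelet isotype, and TUBB8, the oocyte isotype, had no read, with the same limits. The α and β families stood close to each other, with 1.11 α reads per β read in replicate 1 and 1.13 in replicate 2. There were 6.86 and 7.38 STMN1 reads per 100 reads of α- and β-tubulin.

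**Figure D2:**
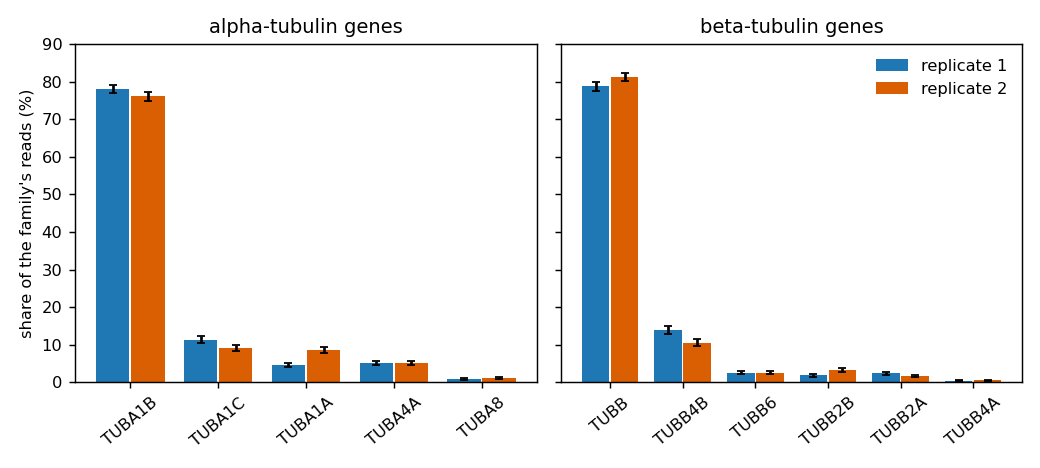
Share of the α-tubulin reads (left) and of the β-tubulin reads (right) taken by each gene with more than 10 reads, in percent, for replicate 1 (blue) and replicate 2 (orange), with 95% Wilson intervals. TUBA1B holds 78.1% and 76.1% of the α reads and TUBB 78.8% and 81.3% of the β reads.

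The reads of each gene in the 2 libraries were set against the library sizes by an exact binomial test (two-sided, Benjamini-Hochberg over the 10634 annotated genes with at least 10 reads, threshold 0.05). It called 4 of the 9 genes, while it called 5.05% of all genes tested. With the minimum raised to 100 reads, a depth that all 9 genes reach, it called 5 of the 9 (TUBB2A in addition) and 14.4% of all genes. TUBA1A was higher in replicate 2 (2.72% of all genes were), and TUBA1B, TUBA1C and TUBB4B were lower (2.33% of all genes were). The median log2 ratio of replicate 2 to replicate 1 was -0.08 over the 9 genes and 0.01 over all genes tested. Over all genes with at least 100 reads it was -0.05.

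TUBA1A had the largest difference, with a log2 ratio of 0.82 (95% exact interval 0.58 to 1.06; exact binomial adjusted p = 2.76e-10). TUBB4B had a log2 ratio of -0.51 (-0.68 to -0.34; exact binomial adjusted p = 6.18e-07). TUBA1C had -0.42 (-0.60 to -0.24; exact binomial adjusted p = 2.30e-04), and TUBA1B -0.13 (-0.19 to -0.06; exact binomial adjusted p = 0.00374). The 3 near copies TUBA1A, TUBA1B and TUBA1C together had 4668 and 4854 reads, a log2 ratio of -0.10 (-0.15 to -0.04). TUBA1B held 3877 and 3942 of these reads, so the sum says little of TUBA1A. Whether reads of one copy were placed on another was not tested.

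TUBB2A had 107 and 76 reads and a log2 ratio of -0.64 (-1.09 to -0.21), which did not pass (exact binomial adjusted p = 0.0560). Its near copy TUBB2B (chromosome 6, 3224261 to 3231730, minus strand) was higher in replicate 2, with a log2 ratio of 0.67 (0.28 to 1.08; exact binomial adjusted p = 0.0163). The sum of TUBB2A and TUBB2B was 190 reads in replicate 1 and 223 in replicate 2, a log2 ratio of 0.08 (-0.21 to 0.37). Whether reads of one were placed on the other was not tested. TUBB stood at -0.07 (-0.14 to -0.00), TUBA4A at -0.07 (-0.33 to 0.18), TUBB6 at -0.08 (-0.46 to 0.30) and STMN1 at 0.00 (-0.15 to 0.16). None of these 4 passed, with exact binomial adjusted p = 0.263 for TUBB and 0.896 or more for the others.

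The make-up of the reads in these genes also differed between the libraries. The table sorts models into known (an annotated transcript), incomplete splice match (ISM, a run of its junctions), models with new combinations of annotated splice sites (NIC) or with unannotated splice sites (NNC), and genomic models, which overlap a gene without following its splicing. Summed over the 9 genes, known models took 61.7% of 9946 reads in replicate 1 (60.8 to 62.7%) and 38.1% of 10258 reads in replicate 2 (37.2 to 39.1%), a mean of 49.9% ± 16.7 (SD, n = 2). In all other annotated genes known models took 56.5% and 46.4%, also less in replicate 2. Genomic models took 27.1% and 49.1%, against 10.8% and 15.1% in all other annotated genes. ISM models took 9.30% and 11.6%, against 24.2% and 32.4% elsewhere. These sums do not describe every gene. ISM shares lay above those elsewhere in STMN1 (46.9% and 47.0%), TUBA1C (29.7% and 45.4%) and TUBB6 (27.0% and 60.3%). Genomic shares lay below those elsewhere in TUBA1C (0.530% and 0.212%) and TUBB6 (0.870% and 0.826%). The remaining tubulin genes had lower ISM and higher genomic shares than elsewhere in both libraries. Without genomic models the mean known share of the 9 genes was 79.8%. The choice of models to count therefore moves this share by more than 1.5 times.

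By gene, the known share was lower in replicate 2 in all 9 genes, and the difference passed in 8 of them (Fisher's exact test per gene, adjusted over 6340 genes with at least 20 reads in each library). Of all genes tested, 27.1% passed and 26.9% were lower in replicate 2. Detection depends on depth: of genes with at least 100 reads in each library 61.2% passed. Adjusted over genes of that depth, all 8 of the genes that reach it passed, TUBB6 among them (Fisher's exact adjusted p = 0.0325), while TUBB2A was too shallow to enter. The known share of TUBA1A was 80.9% in replicate 1 and 49.7% in replicate 2, that of TUBA1B 74.2% and 48.1%, and that of TUBB 53.1% and 27.3%. The smallest difference that passed was that of STMN1, from 36.1% to 26.6% (Fisher's exact adjusted p = 0.00151). TUBB6 had 24.3% and 12.4% and missed the threshold in the test over 6340 genes (Fisher's exact adjusted p = 0.0647). The median difference was -23.4 percentage points over the 9 genes and -8.62 over all genes tested. At a minimum of 100 reads in each library it was -20.1 over the 8 genes that reach it and -10.3 over all. The median known share itself was 58.9% in replicate 1 and 35.5% in replicate 2 over the 9 genes. Over the 6340 genes tested it was 32.5% and 17.5%. The 9 genes thus started higher, and a difference in points does not show that their relative fall was larger.

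Reads in models of 1 exon moved the other way. The reads of the 9 genes divide among known models, single-exon models and other spliced models, and the last took 9.77% and 10.5%. A lower known share is thus nearly the same result as a higher single-exon share, and the test below is no separate support. The share of reads in models of 1 exon, a measure added after the data had been seen, was higher in replicate 2 in all 9 genes, and each passed (Fisher's exact test adjusted over 5610 genes whose most-read known model is spliced). Of all genes tested, 21.9% passed and 21.9% were higher in replicate 2, and of genes with at least 100 reads in each library 48.7% passed. TUBB had the highest share, 40.9% (1444 reads) and then 67.2% (2505 reads; Fisher's exact adjusted p = 1.30e-109). Among the 9 genes the difference was largest in TUBA1A, with 14.7% (33 reads) and 43.8% (193 reads). It was smallest in STMN1, with 13.9% (90 reads) and 24.0% (173 reads; Fisher's exact adjusted p = 4.64e-05). The median difference was 23.7 percentage points over the 9 genes and 7.94 over all genes tested. At a minimum of 100 reads in each library it was 24.6 over the 8 genes that reach it and 5.89 over all.

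**Figure D3:**
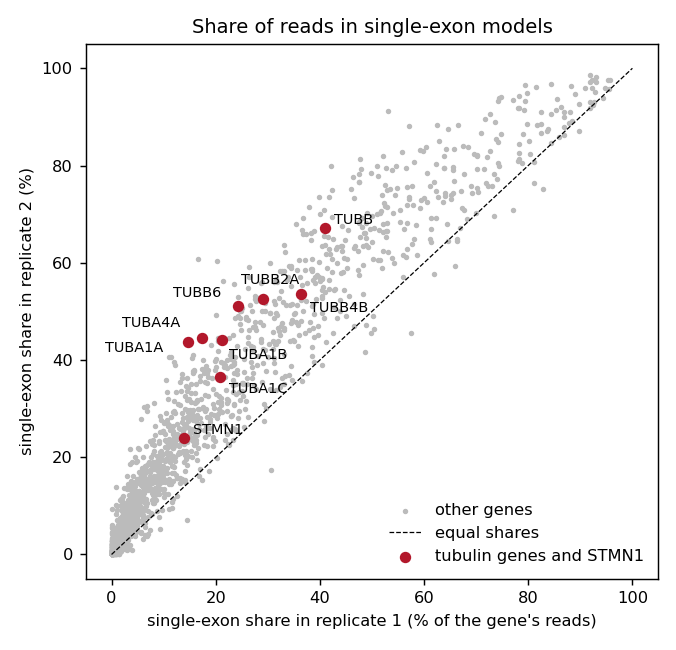
Share of each gene's reads in single-exon models, in percent, in replicate 1 (horizontal axis) and replicate 2 (vertical axis), for the 9 genes (red) and for genes with at least 100 reads in each library (grey). All 9 genes lie above the dashed line of equal shares, from STMN1 at 13.9% and 24.0% to TUBB at 40.9% and 67.2%.

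The 9 genes share a structure of few exons and a long last exon. All but STMN1 are tubulin genes, related in sequence, so this likeness is not independent of the choice by symbol. The most-read known model of each tubulin gene had 4 exons, and that of STMN1 had 5, against a median of 8 over the 5610 genes. The last exon made up 62.4% (TUBA1A) to 78.7% (TUBB2A) of the bases of these models, where the median over genes was 46.2%. TUBB-205, for example, has 2087 of its 2670 bases in the last exon, and TUBA1B-202 has 1157 of 1627. In STMN1-206 the last exon has 986 of 1504 bases.

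Across all genes, the single-exon share was higher where the last exon was a larger part of the model. Its median was 4.09% in replicate 1 and 8.27% in replicate 2 for the 1193 genes with under 25% of the model in the last exon. It was 34.6% and 51.1% for the 1641 genes with 50 to 75%, and 41.9% and 58.0% for the 904 genes above 75%. Among genes whose model has 4 exons, the medians were 6.92% and 8.54% below 25%, and 4.34% and 10.1% at 25 to 50%. They were 18.6% and 35.1% at 50 to 75%, and 30.6% and 48.0% above 75%. The rise was thus not unbroken in replicate 1 among these genes. The tubulin genes with 50 to 75% of the model in the last exon (TUBA1A, TUBA1B, TUBA4A and TUBB4B) had 14.7 to 36.3% in replicate 1 and 43.8 to 53.5% in replicate 2. Those above 75% had 20.8% and 36.5% (TUBA1C), 24.3% and 51.2% (TUBB6), and 40.9% and 67.2% (TUBB), and in TUBB2A 31 of 107 and 40 of 76 reads were single-exon. TUBA1C thus lay below the 4-exon medians of its bin in both libraries and TUBB above them. STMN1, with 65.6% of its 5-exon model in the last exon, had 13.9% and 24.0%, below the all-gene medians of its bin. The table holds no read positions, so where in a gene its single-exon reads lie was not measured.

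Reads of STMN1 were spread over models of every exon number from 1 to 5. In STMN1, models of 5, 4, 3, 2 and 1 exons took 38.4%, 26.7%, 14.5%, 6.33% and 13.9% of reads in replicate 1. In replicate 2 they took 28.6%, 19.7%, 14.1%, 13.6% and 24.0%. The 2-exon and 1-exon parts were larger there and the 5-exon and 4-exon parts smaller. In TUBB, models of 4 exons took 54.3% and 27.8% and models of 1 exon 40.9% and 67.2%, while models of 2 exons took 2.69% and 3.16% and models of 3 exons 2.07% and 1.88%. TUBA4A had the largest part with 3 exons among the tubulin genes, 16.5% and 11.5%, and its 1-exon part in replicate 1 was of like size, 17.3%. In TUBA1B and TUBA1C the 3-exon part was 8.98% and 9.39%, and 9.54% and 9.13%.

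**Figure D4:**
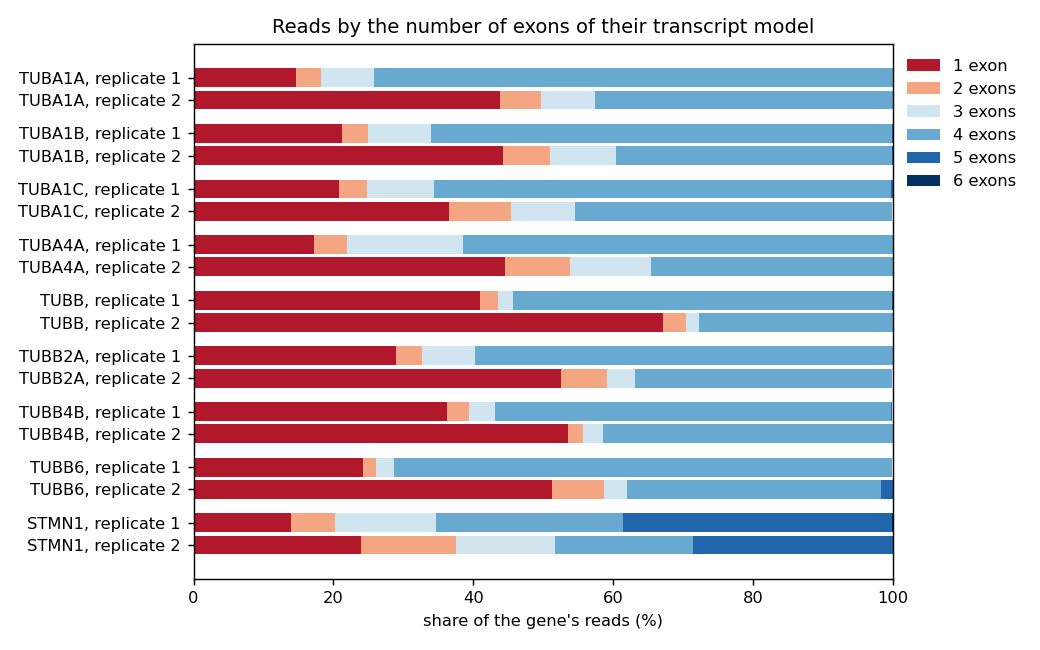
Share of each gene's reads, in percent, by the number of exons of the transcript model they were assigned to, for each gene in replicate 1 and replicate 2. Single-exon models (dark red) are wider in replicate 2 in all 9 genes, and in STMN1 the models of 2 exons take 6.33% and 13.6%.

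In CPM, the 9 genes together had less in known models and more in single-exon models in replicate 2. Known models held 4512 and 2588 CPM and single-exon models 2085 and 3487 CPM, log2 ratios of -0.80 (-0.86 to -0.74) and 0.74 (0.68 to 0.81), whose exact intervals exclude 0. All other annotated genes shifted the same way. Their known models held 554484 and 456053 CPM and their single-exon models 217360 and 278620 CPM. A ratio of 0 is therefore not what the libraries as a whole show for either class. Known models of TUBB stood at 1378 and 673 CPM and its single-exon models at 1061 and 1658 CPM. Those of TUBA1B stood at 2113 and 1255 CPM, and at 604 and 1154 CPM. TUBA1A was the one gene of the 9 whose known models had a ratio above 0: they stood at 134 and 145 CPM, a log2 ratio of 0.11 (-0.17 to 0.41), while its single-exon models stood at 24.3 and 128 CPM, a log2 ratio of 2.38 (1.86 to 2.98). In TUBB4B the single-exon models had 167 and 173 CPM, a log2 ratio of 0.05 (-0.21 to 0.31), and the known models 254 and 134 CPM. No test of the difference between genes was made.

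The call of TUBA1A was lost without its genomic reads. With genomic models left out of the gene and of the library totals, its log2 ratio was 0.29 and no longer passed (exact binomial adjusted p = 0.222), when 8.26% of genes passed. TUBB, TUBA4A and TUBB2A then passed as lower in replicate 2, with log2 ratios of -0.85, -0.58 and -1.15, and TUBB4B moved to -0.89. With reads in known models only, scaled to their own totals, 7 of the 9 genes passed, TUBA1A as higher (0.40) and 6 genes as lower, when 18.8% of all genes passed. On this count all genes had a median of -0.26 on the log2 scale, so TUBA1A lay above it and the 6 genes below it. STMN1 and TUBB6 passed in neither.

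**Figure D5:**
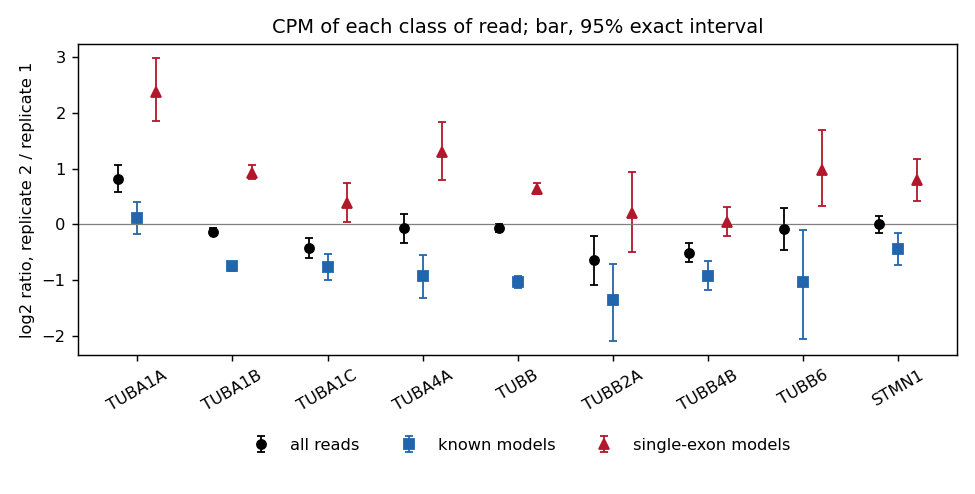
Log2 ratio of replicate 2 to replicate 1 in CPM for each gene, for all reads (black), reads in known models (blue) and reads in single-exon models (red), with 95% exact intervals. Known models lie below 0 in every gene but TUBA1A, where the ratio is 0.11, and single-exon models lie highest in TUBA1A, at 2.38.

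Among spliced reads alone, those in models of at least 2 exons, known models held most of the reads of every tubulin gene but TUBB6. The known share of spliced reads was 94.8% and 88.3% in TUBA1A, 94.1% and 86.3% in TUBA1B, and 89.9% and 83.1% in TUBB. It was 32.2% and 25.4% in TUBB6 and 41.9% and 35.0% in STMN1. The difference between the libraries passed in TUBA1B and TUBB only, 2 of the 9 genes, when 23.9% of the genes tested passed. With genomic models alone left out it passed in 3 of the 9 genes, TUBA1C in addition, when 26.0% of the genes tested passed. Both counts are near the share over all genes. Leaving out genomic models does not remove the single-exon reads of TUBA1C and TUBB6, which are mostly filed as ISM. The difference in TUBA1C was -14.6 percentage points there but -1.54 over spliced reads (Fisher's exact adjusted p = 0.820). In TUBB4B the known share of spliced reads was 86.7% and 89.4%, so that the sign of its difference was opposite to that over all reads.

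The α-tubulin models were led by the annotated coding transcript in replicate 1. TUBA1B-202 (4 exons, 1627 bases) held 65.1% of the gene's reads (2525) in replicate 1 and 38.8% (1528) in replicate 2, where the genomic model ENCODEHT000616297 was ahead with 1732 reads (43.9%) against 819 in replicate 1. TUBA1B-201, an annotated transcript that retains intron 1, of 1575 bases, had 342 reads (8.82%) and 356 reads (9.03%). The 95% Wilson intervals of its share, 7.97 to 9.76% and 8.18 to 9.97%, overlapped, and those of TUBA1B-202 did not. These shares are of all reads of the gene, genomic reads included. Of the known reads alone, TUBA1B-201 had 342 of 2875 in replicate 1 and 356 of 1897 in replicate 2, a larger part. The most-read ISM model, ENCODEHT000616301, a suffix of 2 exons that keeps the 3′ end, had 136 and 256 reads. The most-read model with an unannotated splice site, ENCODEHT000616303 (4 exons), had 16 and 13 reads.

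TUBA1A-202 (4 exons, 1915 bases) had 163 and 184 reads, and the genomic model ENCODEHT000626874 had 33 and 192. TUBA1A-207, an annotated coding transcript of 3 exons, had 16 and 33 reads, a share of the gene of 7.11% and 7.48%. The TUBA1A suffix ENCODEHT000626875 had 7 and 25 reads, and its NNC model ENCODEHT000626917, one of several of that depth, had 1 and 1. TUBA1A and TUBA1C lie on opposite strands and their gene bodies overlap by 589 bases, but the exons of their most-read known models did not overlap.

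In TUBA1C the main single-exon model was filed as ISM, not as genomic. ENCODEHT000628085 (1 exon, 1054 bases) had 115 and 171 reads, and genomic models had 3 and 1. The 3001-base coding transcript TUBA1C-201 had 360 reads (63.6%) and 209 reads (44.4%), and TUBA1C-203, which GENCODE types as a retained intron, had 22 and 40 reads. The NNC model ENCODEHT000627706 had 4 and 2 reads. In TUBA4A, TUBA4A-201 had 149 and 87 reads, the genomic model ENCODEHT000595642 had 44 and 118, the 3-exon suffix ENCODEHT000595643 had 37 and 27, and the NIC model ENCODEHT000595669 had 1 and 2.

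Use of known models could be tested in 3 of the 9 genes, since the others had no second known model with 10 reads. The share of the most-read known model among known reads differed in 2 of them (Fisher's exact test over 1175 genes), when 20.2% of genes tested did. At a minimum of 100 known reads in each library, which these 3 genes reach, 2 of the 3 passed and 34.1% of genes tested did. Of the 237 genes that passed in the test over 1175 genes, 206 were lower in replicate 2. The median difference over all 1175 was -4.48 percentage points. TUBA1B-202 held 87.8% of 2875 known reads in replicate 1 and 80.5% of 1897 in replicate 2 (Fisher's exact adjusted p = 3.30e-10). TUBA1C-201 held 94.0% of 383 and 83.3% of 251 (Fisher's exact adjusted p = 2.81e-04). TUBA1A-202 held 89.6% of 182 and 84.0% of 219, which did not pass (Fisher's exact adjusted p = 0.290). With known and ISM models counted together, 8 of the 9 genes could be tested and 6 passed, when 46.0% of the genes tested did.

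The β-tubulin genes had 1 main coding transcript each. TUBB-205 (4 exons, 2670 bases) had 1873 reads and 1015 reads, nearly all of the 1874 and 1017 known reads of the gene. Its genomic reads were split over ENCODEHT000561813, with 998 and 1584 reads, and ENCODEHT000562723, with 445 and 917. The listed length of the first, 2849 bases, exceeded that of the spliced transcript, and the genomic model of TUBB2A (ENCODEHT000545224, 30 and 36 reads) was listed at 1 base, so listed lengths of genomic models were not read as read lengths. The TUBB suffix ENCODEHT000561958 (2 exons) had 93 and 105 reads and the NNC model ENCODEHT000557381 had 15 and 11.

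TUBB4B-201 had 342 and 200 reads and the genomic model ENCODEHT000612862 had 227 and 261. The suffix ENCODEHT000613047 (3 exons) had 20 and 10 reads, and the NIC model ENCODEHT000612717 had 4 and 1. TUBB2A-201 had 63 and 27 reads. The most-read TUBB2A suffix, ENCODEHT000545229, had 4 and 5, and its NNC model ENCODEHT000545235 had 1 and 1.

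TUBB6 was the only one of the 9 genes whose most-read spliced model was not annotated. The NNC model ENCODEHT000212004 (4 exons, 2006 bases) held 40.9% of TUBB6 (47 reads) in replicate 1 and 17.4% (21 reads; 95% Wilson interval 11.6 to 25.1%) in replicate 2. The annotated TUBB6-201, also of 4 exons and of 2064 bases, had 23 reads and 14 reads, the latter 11.6% of the gene (7.02 to 18.5%). The NNC model thus had more reads than the annotated transcript in both libraries, though the intervals of their shares overlapped in replicate 2. NNC models together held 43.5% and 20.7% of TUBB6, against 4.40% and 3.15% of all other annotated genes and 2.78% or less in each of the other 8 genes. A single-exon ISM model, ENCODEHT000212094, had 27 and 58 reads. The NIC model ENCODEHT000212007 had 3 and 6.

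STMN1-206 (5 exons, 1504 bases) was the most-read model of STMN1, with 233 and 192 reads. The suffix models ENCODEHT000351835, ENCODEHT000351823 and ENCODEHT000351825, of 4, 3 and 2 exons, had 166 and 137, 91 and 98, and 36 and 93 reads. Suffix models made up 99.0% and 97.9% of the ISM reads of STMN1, against 68.4% and 68.0% over all annotated genes. The ISM share of STMN1 was 46.9% and 47.0%, the highest of the 9 genes in replicate 1 and second to TUBB6 (60.3%) in replicate 2. The genomic model ENCODEHT000352124 had 57 and 137 reads, and the NNC model ENCODEHT000352056 had 6 and 2.

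Of the 203 models of the 9 genes, 97 (47.8%) had a read in both libraries and 91 (44.8%) rested on 1 read. Known models recurred in 21 of 25 cases, ISM models in 32 of 60, genomic models in 13 of 22, NIC models in 9 of 24 and NNC models in 22 of 72. STMN1 had the most recurring NNC models, 8 of 14.

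Genes of similar make-up were sought among the 356 annotated genes with at least 1000 reads, by the Euclidean distance over the shares of known, ISM, NIC, NNC and genomic reads in both libraries. Nearest to TUBA1B was the γ-actin gene ACTG1, at a distance of 0.0435 where the median gene was at 0.678, followed by RPL41 (0.187) and the immunoglobulin constant gene IGHA1 (0.205). The known share of ACTG1 was 72.2% and 50.2% and its genomic share 20.4% and 41.7%. Nearest to TUBB were COTL1, an actin-binding protein gene (0.0737), ARHGDIA (0.142) and the pseudogene RPL9P9 (0.148). Nearest to STMN1 were FCER2, which encodes the B cell surface receptor CD23 (0.186), HNRNPA2B1 (0.213) and PARK7 (0.214). These distances describe 2 libraries and carry no test.

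In other genes of the tubulin pathway the counts past the binomial test were small, as they were over all genes, of which 5.05% passed. Detection depends on depth here too: of all genes with at least 100 reads 14.4% passed. Several genes of these lists had few reads, such as TTLL1 (7 and 6) and ATAT1 (7 and 10). A gene that did not pass is therefore not shown to be equal in the 2 libraries. In the group of γ-, δ- and ε-tubulins and components of the γ-tubulin ring, the complex that nucleates microtubules, none of 12 tested genes passed, and the highest were MZT2B (259 and 312 CPM) and MZT2A (171 and 185 CPM). Of 15 tested genes of tubulin folding and mRNA decay, 1 was lower in replicate 2 and none was higher. That gene was the prefoldin subunit PFDN6, with 75.7 and 41.7 CPM and a log2 ratio of -0.86 (exact binomial adjusted p = 0.00618). PFDN5, also a prefoldin subunit, had 368 and 382 CPM, the small GTPase gene ARL2, whose product binds a tubulin cofactor, had 112 and 111 CPM, and TTC5 had 7 reads in each library. The median log2 ratio of this group was -0.05.

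None of 13 tested genes of tail and lysine modification passed, with a median of -0.09. The highest were TTLL12 (88.2 and 64.9 CPM), of the tubulin tyrosine ligase-like family, and SIRT2 (31.6 and 21.8 CPM), a deacetylase. Of 12 tested microtubule-associated genes none passed, with a median of 0.08; the end-binding gene MAPRE1 had 137 and 122 CPM and MAP4 had 119 and 126 CPM. None of 6 tested genes of microtubule depolymerisation and severing passed, although the median was 0.56; the depolymerising kinesins KIF2C and KIF2A had 48.5 and 66.2 CPM, and 39.0 and 45.0 CPM. Of the other stathmins only STMN3 was read, with 2 and 4 reads. All of these pathway genes lay below STMN1 in both libraries.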

How the data were processed

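Direct RNA reads of 2 GM12878 libraries were analysed. The authors deposited raw read counts, 1 row per transcript model and 1 column per library, beside the exon number and length of each model. Per the submitters' processing notes minimap2 and hg38 were used, and the table's name refers to TALON; versions, annotation release and read filters are not given in the sources used here. All 23533 known models matched GENCODE release 29 in length and exon number, so gene positions, transcript types and sequences came from there.

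Gene counts are sums over models of an annotated gene, and CPM uses the total of all reads. Log2 ratios were computed after adding 0.5 reads; their 95% intervals are exact (Clopper-Pearson). Tests were the exact binomial test (at least 10 reads), and Fisher's exact test of known or single-exon shares (20 reads per library) and of the most-read known model (20 known reads per library, 2 models with 10 reads), with Benjamini-Hochberg adjustment over all genes and a threshold of 0.05. Scripts were tested on simulated data. TMM factors came from edgeR 4.0.16 and size factors from DESeq2 1.42.0, as scaling alternatives only; Python 3.11.15, scipy 1.17.1 and Biopython 1.88 (global alignment) did the rest. The 9 genes and the pathway lists were chosen with earlier results of these data known. Besides the 9 genes, the text names the 2 genes with the highest CPM of each pathway list and those past the threshold, for TUBA1B, TUBB and STMN1 the 3 nearest genes by make-up, and for each of the 9 genes the most-read known, ISM and NIC or NNC model; other genes and models were named after their values were seen. The coding ends of the α-tubulin genes are not reported here.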

Additional observations from a re-analysis of the deposited data

How the results depend on the processing

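No paired analysis was possible because the series has 1 group. With 1 library left out, the remaining one gave 76.1 to 78.1% for the TUBA1B share of α reads, 78.8 to 81.3% for the TUBB share of β reads and 38.1 to 61.7% for the known share. Of the 9 genes, 4 differed between the libraries with all reads, when 5.05% of all genes tested did. With known models only 7 differed, when 18.8% of all genes tested did and the median log2 ratio over all genes was -0.26. With genomic models left out the TUBA1B and TUBB shares were 72.8% and 74.3%, and with known models only the TUBB share was 77.9%. The known share of the 9 genes was 79.8% without genomic models and 82.4% over models of 2 or more exons. The difference in known share passed in 3 of 9 genes without genomic models (26.0% of all genes) and in 2 of 9 over models of 2 or more exons (23.9%), in place of 8 of 9 (27.1%), and the sign turned in TUBB4B, to 2.74 percentage points in each. The single-exon reads of TUBA1C and TUBB6, mostly filed as ISM, stay when genomic models are left out. With known and ISM models counted, 6 of 8 genes tested differed in their most-read model (46.0% of all genes tested), in place of 2 of 3 (20.2%). The log2 ratio of STMN1, 0.00 with all reads, was -0.03 with TMM scaling, -0.15 with known models only and -0.11 without genomic models, and passed in none. TUBB (-0.10) and TUBB2A (-0.67) passed with TMM scaling, and TUBB2A also with a minimum of 100 reads. Over all genes, 537 of 10634 tested were called with all reads (289 up and 248 down in replicate 2). When only known models counted, 1042 of 5528 were called (324 and 718), and without genomic models 723 of 8758 (300 and 423). The cause was not tested. At 107 and 76 reads, TUBB2A is the shallowest of the 9 genes.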
